A study of Rattus norvegicus with 9 samples.

Results

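The receptors and ligands through which the epidermal growth factor (EGF) and hepatocyte growth factor (HGF) families act on liver cells were followed in rat liver mRNA. The genes were chosen by name from their known roles, with no measured value in the rule: the receptors Egfr, Erbb2, Erbb3 and Met, the EGF receptor ligands Egf, Tgfa, Hbegf, Areg and Ereg, and the MET ligand Hgf. All 10 were present among the 32883 genes of the deposited table. Liver mRNA came from 9 male Sprague-Dawley rats, each sequenced as 1 library: 3 normal control rats, 3 rats of the DEN model and 3 given PZH. Normal control rats received a normal diet. The DEN model and PZH administration rats shared weekly intraperitoneal injections of 0.01% diethylnitrosamine (DEN, a liver carcinogen) over a 16-week experiment, and the latter were also given Pien-Tze-Huang (PZH), a Chinese patent medicine. The groups rest on the first letter of each rat's name (N, M, G), because the deposited treatment field names PZH for the M rats as well. PZH was given at a low or a high dose and livers were taken at several weeks in the study, but which dose and week apply to each of these rats is not given in the sources used here.

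EGF-family ligands are made as membrane-anchored precursors and are released by proteases before they bind EGFR (Erbb1) on the same or a neighbouring cell. ERBB2 binds no known ligand and signals as a partner of the other receptors, whereas ERBB3 binds neuregulins and has little kinase activity of its own. HGF is secreted mainly by stellate and other mesenchymal cells of the liver and acts on MET of hepatocytes. EGFR and MET are the main growth factor receptors of hepatocytes and drive their proliferation after liver injury or resection.

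Normal control libraries held 16115709 to 16412520 counts, DEN model libraries 15259441 to 16641954 and PZH administration libraries 14922973 to 27161496, with rat 27 the deepest. Levels are given as CPM, a gene's counts relative to the size of its library, after scaling with TMM factors, which make the typical gene equal between libraries. A floor of 3 counts corresponded to 0.125 to 0.252 CPM depending on the rat, and covers counting error only. All 10 hepatocyte markers of the list used here were detected, with a summed level of 173150 to 190110 CPM in normal control rats. Library scaling bears on every direction given here, since normal control libraries had TMM factors of 0.731 to 0.799, DEN model libraries of 1.21 to 1.58 and PZH administration libraries of 0.863 to 0.941. Replacing TMM factors by library totals moved the median over all genes, on the log2 scale, by 0.87 in the DEN model against the normal control group and by -0.67 in the PZH administration against the DEN model group. With library totals, 8126 of 9084 genes called in the first comparison were higher, against 3612 of 6529 with TMM, and 556 of 6252 in the second, against 1245 of 2722.

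The receptor and ligand repertoire of the DEN model liver differed from that of normal liver in both directions. Egfr and Egf were lower by 7.62-fold and 9.46-fold, and Erbb3 and Met were lower by 2.07-fold and 1.47-fold relative to the typical gene (relative to total reads Erbb3 did not pass the test and Met reversed to a log2 fold change of 0.33). Erbb2, from few reads in normal liver, was higher by 22.5-fold (95% interval 2.89 to 6.10 on the log2 scale) and Tgfa by 1.00 on the log2 scale. In the PZH administration group, Egfr and Egf were 3.83-fold and 8.55-fold above the DEN model group, and Erbb2 and Hbegf were 7.88-fold and 3.75-fold below it. Against normal control rats, Egfr was the 1 tested member called after PZH, 2.05-fold lower, a call lost in 9 of 12 alternatives. Amphiregulin (Areg) and epiregulin (Ereg) had reads in DEN model rats and none in any rat of the other groups.

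Of the 10 genes, 8 had enough counts to be tested in the DEN model against the normal control group, and edgeR's quasi-likelihood test called 6 of them at an adjusted p below 0.05, 2 higher and 4 lower, where 45.8% of all 14255 tested genes were called (25.3% higher and 20.5% lower). With library totals 6 were called as well, but 4 higher and 2 lower, where 89.5% of all genes called were higher. The study's own thresholds ask for a log fold change over 2 in size with P below 0.001, and were taken here as log2 and unadjusted P. They called 3 genes, Erbb2 higher and Egfr and Egf lower, against a background of 12.3% (8.81% higher and 3.49% lower). In the PZH administration against the DEN model group, 4 of 8 tested genes were called, 2 in each direction, against 19.1% of 14272 genes (8.72% higher and 10.3% lower). At the study's thresholds Egf passed as higher and Erbb2 as lower, against a background of 2.43% (1.08% higher and 1.35% lower). For the PZH administration against the normal control group 7 genes were tested and 1 was called, as lower, where 5.21% of 13348 genes were called (4.07% higher and 1.15% lower). None of the 7 met the study's thresholds (1 had an unadjusted p under 0.05 in edgeR, and DESeq2 called 1), which 2.32% of all genes did (2.16% higher and 0.165% lower). Areg and Ereg failed the filter on low counts in every comparison, and Erbb2 passed it only where the DEN model rats were included. The DEN model rats enter both of the first comparisons, so opposite signs in them are not independent of each other. Leaving out DEN model rat 13 reduced the PZH administration against DEN model calls from 4 to 1 (Egf). The plot of fold changes with intervals shows every tested member.

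**Figure D1:**
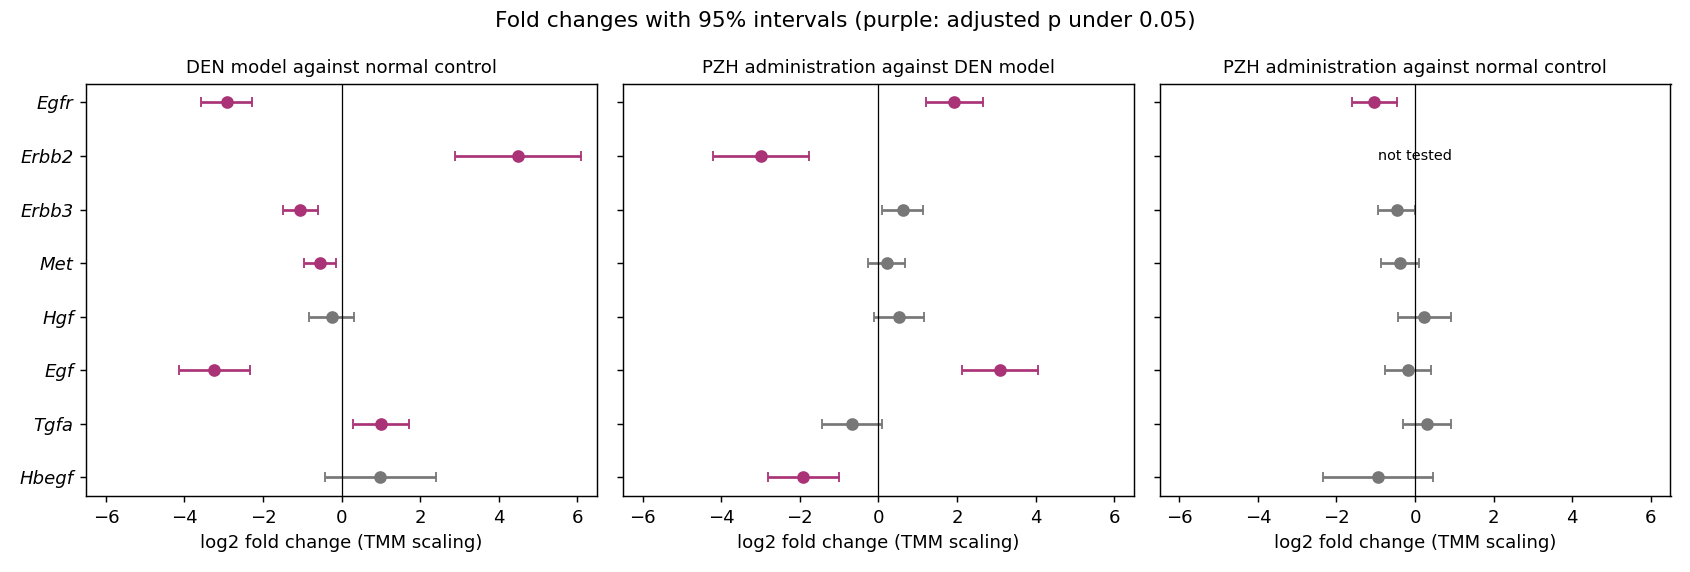
Log2 fold change with 95% interval of the tested genes in each comparison (x axis, TMM scaling), 8 in the comparisons with the DEN model group and 7 in the third, 3 rats per group, purple where the adjusted p was under 0.05. Egfr and Egf lie left of 0 in the DEN model and right of 0 after PZH, Erbb2 the reverse, and Hgf spans 0 in all 3 panels.

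Levels of different genes can be compared only per transcript length, for which the authors' FPKM values were used. In normal liver the order of mean FPKM was Egfr (53.9 ± 8.19, SD, n = 3), Erbb3 (28.03 ± 3.81), Met (17.01 ± 1.08), Hgf (7.58 ± 1.82), Tgfa (2.64 ± 0.381), Egf (1.32 ± 0.167), Hbegf (1.03 ± 0.986) and Erbb2 (0.0368 ± 0.0306), with Areg and Ereg listed at 0. Of neighbours in this order, only Egf and Hbegf overlapped between rats (Areg and Ereg aside). In DEN model liver Egfr had moved from the head of the order to the third place, at 12.5 ± 2.51 FPKM, behind Erbb3 (24.3 ± 0.729) and Met (21.3 ± 4.51). Erbb3 overlapped Met there, and Egfr overlapped Hgf (11.5 ± 2.103). Egf had the lowest mean of all 10 in that group, 0.242 ± 0.0901 FPKM, below Ereg (0.600 ± 0.385) and Areg (0.434 ± 0.406), although its rats overlapped those of both. After PZH, Egfr was again first (30.5 ± 7.91 FPKM), overlapping Erbb3 (23.5 ± 4.16), and Erbb2 was again the lowest gene with reads (0.126 ± 0.0523).

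**Figure D2:**
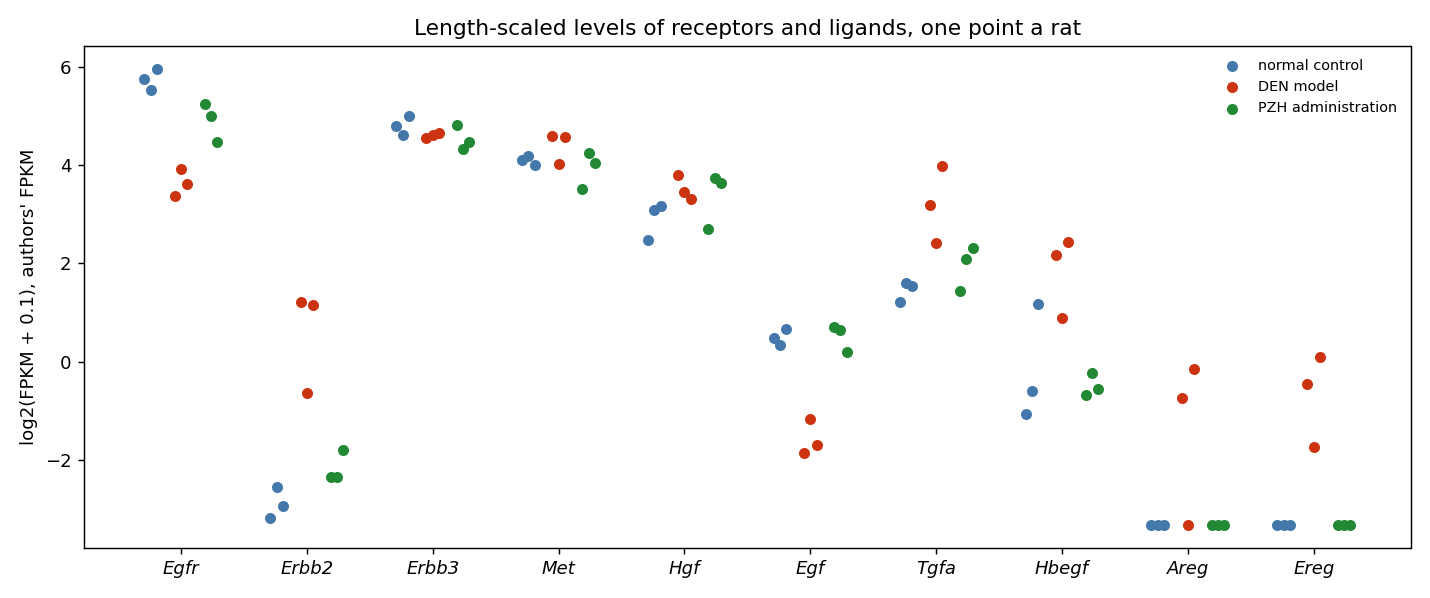
Authors' FPKM on a log2 scale after adding 0.1 (y axis) for each receptor and ligand, with 1 point per rat coloured by group. Egfr leads in every normal control rat and lies below Erbb3 in every DEN model rat and, narrowly, in PZH administration rat 42, while Areg and Ereg sit at the bottom of the axis outside the DEN model group.

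Egfr (ENSRNOG00000004332, chr14:99919485-100098796 in the coordinates of the authors' file, whose build is not given in the sources used here) encodes the receptor shared by EGF, TGF-alpha, HB-EGF, amphiregulin and epiregulin. Its level was 281, 261 and 324 CPM in normal control rats 1, 3 and 12, and 28.5, 51.9 and 31.9 CPM in DEN model rats 13, 17 and 24. PZH administration rats 27, 28 and 42 had 181, 143 and 97.2 CPM. No group overlapped another, and every PZH administration rat lay between the DEN model and the normal control rats. The log2 fold change was -2.93 (standard error 0.28, edgeR adjusted p = 0.00021) in the DEN model against the normal control group and 1.94 (0.32, adjusted p = 0.012) in the PZH administration against the DEN model group. In the PZH administration against the normal control group it was -1.03 (standard error 0.25, edgeR adjusted p = 0.048), a call lost in 9 of 12 alternatives, among them leaving out any normal control rat or PZH administration rat 28 or 42 (adjusted p up to 0.20). Without DEN model rat 13, the PZH administration against DEN model difference was 1.77 (edgeR adjusted p = 0.055). In bulk liver, fewer hepatocytes and less Egfr mRNA per hepatocyte cannot be told apart. Summed hepatocyte markers were at 37915 to 87868 CPM in DEN model rats and at 146500 to 183260 CPM in PZH administration rats. In the first comparison 4 of 10 were lower (20.5% of all genes), and in the second 2 of 10 were higher (8.72%). The part of these markers in the Egfr result was not tested.

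Erbb2 (ENSRNOG00000006450, chr10:86367596-86391728), the ligandless partner receptor, whose locus also holds a small RNA gene, was close to the counting floor in normal liver. Normal control rats 1, 3 and 12 had 1, 7 and 3 reads, or 0.0781, 0.587 and 0.229 CPM, and PZH administration rats 27, 28 and 42 had 0.683, 0.626 and 1.21 CPM. DEN model rats 13, 17 and 24 had 9.09, 2.72 and 8.24 CPM, so that rat 17 stood well below the others of its group and still above every rat of the other groups. The log2 fold change was 4.49 (standard error 0.70, edgeR adjusted p = 0.0015) in the DEN model against the normal control group and -2.98 (0.53, adjusted p = 0.014) in the PZH administration against the DEN model group. Since Erbb2 passed the filter on low counts only through its reads in DEN model rats, these p-values and its place among the calls describe the data and are no independent support. The first value rests on few reads in normal liver and was 5.39 without normal control rat 3 and 3.47 with limma on FPKM. Without DEN model rat 13 the second difference was -2.69 (edgeR adjusted p = 0.058). Between PZH administration and normal control rats the fit without a filter on low counts gave 1.46 (edgeR adjusted p = 0.44).

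Erbb3 (ENSRNOG00000004964, chr7:2989340-3010350), the neuregulin receptor of hepatocytes, was second to Egfr in normal liver. It stood at 208, 198 and 238 CPM in normal control rats 1, 3 and 12, at 93.8, 119 and 94.0 CPM in DEN model rats 13, 17 and 24, and at 193, 128 and 140 CPM in PZH administration rats 27, 28 and 42. The groups did not overlap. Its log2 fold change was -1.05 (standard error 0.20, edgeR adjusted p = 0.0034) in the DEN model, and 0.62 (0.23, adjusted p = 0.094) in the PZH administration against the DEN model group. With library totals the DEN model difference was -0.21 (edgeR adjusted p = 0.38) and the difference after PZH turned to -0.05, so Erbb3 fell relative to the typical gene and not detectably relative to total reads. On library totals alone it stood at 144 to 190 CPM in normal control and 139 to 148 CPM in DEN model rats, which overlapped.

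**Figure D3:**
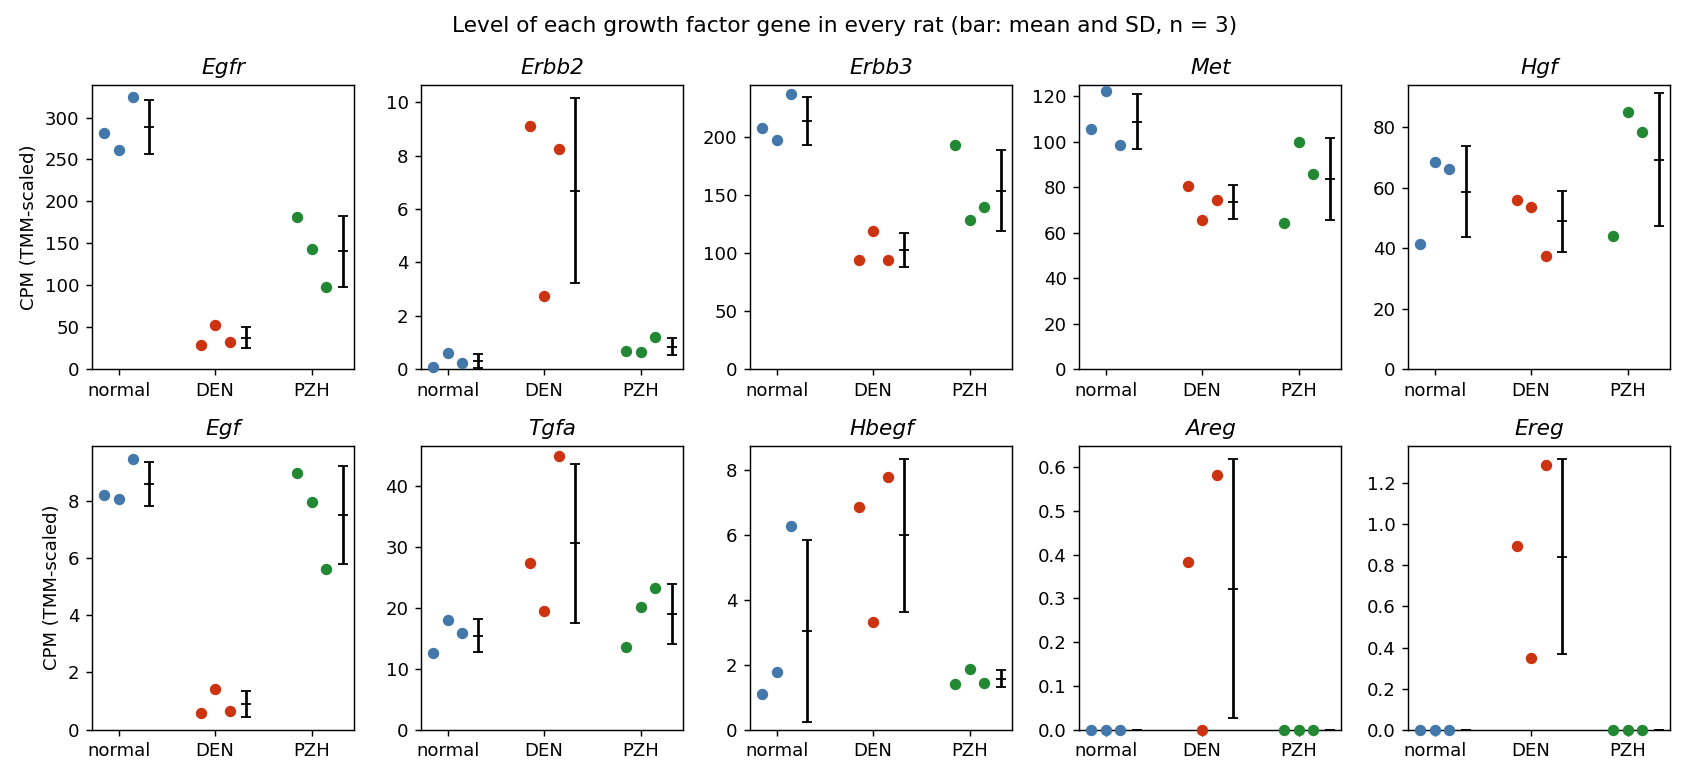
TMM-scaled CPM (y axis, from 0) of the 10 genes in each of the 9 rats, 1 point per rat, with the mean and SD of each group (n = 3) as a bar beside the points. Egfr, Erbb3 and Egf are lowest in DEN model rats, Erbb2 and Ereg highest there, and Hgf overlaps in all 3 groups.

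Egf (ENSRNOG00000053979, chr2:68820615-68895920), which gives the family its name, was a low-level transcript in normal liver at 8.20, 8.06 and 9.46 CPM in normal control rats 1, 3 and 12. DEN model rats 13, 17 and 24 had 0.595, 1.44 and 0.666 CPM, from 14, 29 and 16 reads. PZH administration rats 27, 28 and 42 had 8.96, 7.93 and 5.63 CPM, overlapping the normal control rats. The log2 fold changes were -3.24 (standard error 0.39, edgeR adjusted p = 0.00051) and 3.10 (0.42, adjusted p = 0.0089), and both calls were kept in all 12 alternatives. In the PZH administration against the normal control group the difference was -0.18, with a 95% interval from -0.77 to 0.41 (edgeR adjusted p = 0.79).

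Tgfa (ENSRNOG00000016182, chr4:117962319-118046344) encodes transforming growth factor alpha, an autocrine ligand of hepatocytes, and had the highest FPKM of the 5 EGFR ligands in every rat. It stood at 12.5, 17.96 and 15.8 CPM in normal control rats 1, 3 and 12 and at 27.3, 19.4 and 44.9 CPM in DEN model rats 13, 17 and 24. The groups did not overlap, but DEN model rat 17 was close to the highest normal control rat. The log2 fold change was 1.00 (standard error 0.31, edgeR adjusted p = 0.029), and the call was lost without normal control rat 1 (adjusted p = 0.10), normal control rat 12 (0.073) or DEN model rat 24 (0.10). PZH administration rats 27, 28 and 42 had 13.6, 20.2 and 23.1 CPM and overlapped both other groups. The difference from the DEN model group was -0.67 (edgeR adjusted p = 0.19) with TMM and -1.37 (adjusted p = 0.022) with library totals.

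Hbegf (ENSRNOG00000018646, chr18:29329764-29340403), the heparin-binding ligand, varied widely among normal control rats, with 1.09, 1.76 and 6.26 CPM in rats 1, 3 and 12. DEN model rats 13, 17 and 24 had 6.84, 3.32 and 7.78 CPM and overlapped normal control rat 12. PZH administration rats 27, 28 and 42 had 1.41, 1.88 and 1.42 CPM, all below every DEN model rat. The fall from the DEN model to the PZH administration group was 1.91 on the log2 scale (standard error 0.39, edgeR adjusted p = 0.018) and lost its call without DEN model rat 13 (adjusted p = 0.074), DEN model rat 24 (0.064) or PZH administration rat 42 (0.055). In the DEN model against the normal control group the log2 fold change was 0.98 (edgeR adjusted p = 0.23), and 2.08 (adjusted p = 0.018) without normal control rat 12 or 1.88 (adjusted p = 0.028) with library totals.

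Areg (ENSRNOG00000002754, chr14:18521930-18531179) and Ereg (ENSRNOG00000002771, chr14:18576355-18591394) encode amphiregulin and epiregulin and are neighbours on the same chromosome. Ereg had 21, 7 and 31 reads in DEN model rats 13, 17 and 24 (0.892, 0.347 and 1.29 CPM) and 0 reads in each of the 6 other rats. Set against a floor of 3 counts per library, its DEN model mean was at least 3.54-fold higher than in normal control rats and at least 4.595-fold higher than in PZH administration rats. Areg had 9, 0 and 14 reads in the same DEN model rats (0.382, 0 and 0.583 CPM) and none elsewhere. Its mean was at least 1.35-fold and at least 1.75-fold higher against the same floors, but DEN model rat 17 had no reads, so the groups overlapped.

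Promoter sequences are shown for 3 genes with different patterns: Egfr, the receptor with the largest fall in the DEN model, Erbb2, the receptor that rose there, and Areg, a ligand with reads only in DEN model rats. They were taken from RefSeq (build GRCr8, which is not the build of the coordinates above), where 8 of the 10 genes had an entry and Erbb3 and Ereg had none. The 130 bases before the annotated start are printed 5′ to 3′ on the gene's strand, at chr14:95378496-95378625 (plus strand) for Egfr, chr10:83907471-83907600 (plus) for Erbb2 and chr14:17265642-17265771 (minus) for Areg. Capitals mark matches on either strand to a TATA box (TATAAA), a cAMP response element (TGACGTCA), an AP-1 site (TGANTCA), a GC box (GGGCGG) or a TEAD site (GGAATG).
Egfr: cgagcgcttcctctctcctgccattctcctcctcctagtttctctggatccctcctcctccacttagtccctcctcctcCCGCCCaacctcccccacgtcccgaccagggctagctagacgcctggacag
Erbb2: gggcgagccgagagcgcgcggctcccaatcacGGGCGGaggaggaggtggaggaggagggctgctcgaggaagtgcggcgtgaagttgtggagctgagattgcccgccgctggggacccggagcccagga
Areg: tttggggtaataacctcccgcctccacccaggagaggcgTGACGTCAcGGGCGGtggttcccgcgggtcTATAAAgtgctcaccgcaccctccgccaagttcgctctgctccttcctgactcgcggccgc

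In the 250 bases before the start, the Areg promoter held a cAMP response element, a GC box and a TATA box that did not overlap, beginning 91, 82 and 61 bases before the start. Among all 33469 RefSeq promoter windows of this length, 1.59% held the cAMP response element, 30.5% the GC box and 12.9% the TATA box. Egfr and Erbb2 each held a GC box, beginning 51 and 98 bases before the start, and no TATA box, and Erbb2 also held a TEAD site at 153 bases, outside the printed stretch (12.1% of windows). The AP-1 letters, present in 6.34% of windows, were in none of the 8 members' windows. A match describes letters in the window and no measured binding.

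Met (ENSRNOG00000052745, chr4:44774741-44852665), the HGF receptor, had 106, 122 and 98.5 CPM in normal control rats 1, 3 and 12 and 80.4, 65.7 and 74.3 CPM in DEN model rats 13, 17 and 24, without overlap. Its log2 fold change was -0.55 (standard error 0.18, edgeR adjusted p = 0.031) with TMM and 0.33 (adjusted p = 0.20) with library totals, so its direction depends on the scaling. Of the 12 alternatives, 3 kept the call. PZH administration rats 27, 28 and 42 had 64.4, 100.2 and 86.0 CPM and overlapped both other groups. The difference from the DEN model group was 0.21 (95% interval -0.26 to 0.67, edgeR adjusted p = 0.51) with TMM and -0.47 with library totals.

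Hgf (ENSRNOG00000007027, chr4:15433295-15505362), the MET ligand of mesenchymal cells, overlapped between all groups. It stood at 41.3, 68.6 and 66.2 CPM in normal control rats 1, 3 and 12, at 55.8, 53.5 and 37.3 CPM in DEN model rats 13, 17 and 24, and at 44.2, 85.3 and 78.6 CPM in PZH administration rats 27, 28 and 42. The DEN model against normal control difference was -0.25 (95% interval -0.82 to 0.31, edgeR adjusted p = 0.44) with TMM. With library totals it reversed to 0.61 (edgeR adjusted p = 0.045), and the groups no longer overlapped, at 32.8 to 52.9 CPM in normal control and 58.8 to 83.0 CPM in DEN model rats. The difference between PZH administration and DEN model rats was 0.52 (95% interval -0.11 to 1.15, edgeR adjusted p = 0.21), and -0.11 with library totals. Summed stellate cell markers, of cells that secrete HGF, stood at 270 to 398 CPM in normal control, 1192 to 3458 CPM in DEN model and 668 to 805 CPM in PZH administration rats. These sums did not overlap between the groups. In the DEN model group 8 of 9 markers rose (25.3% of all genes), and after PZH 6 of 9 fell (10.3%). The part of these markers in the Hgf level was not tested.

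**Figure D4:**
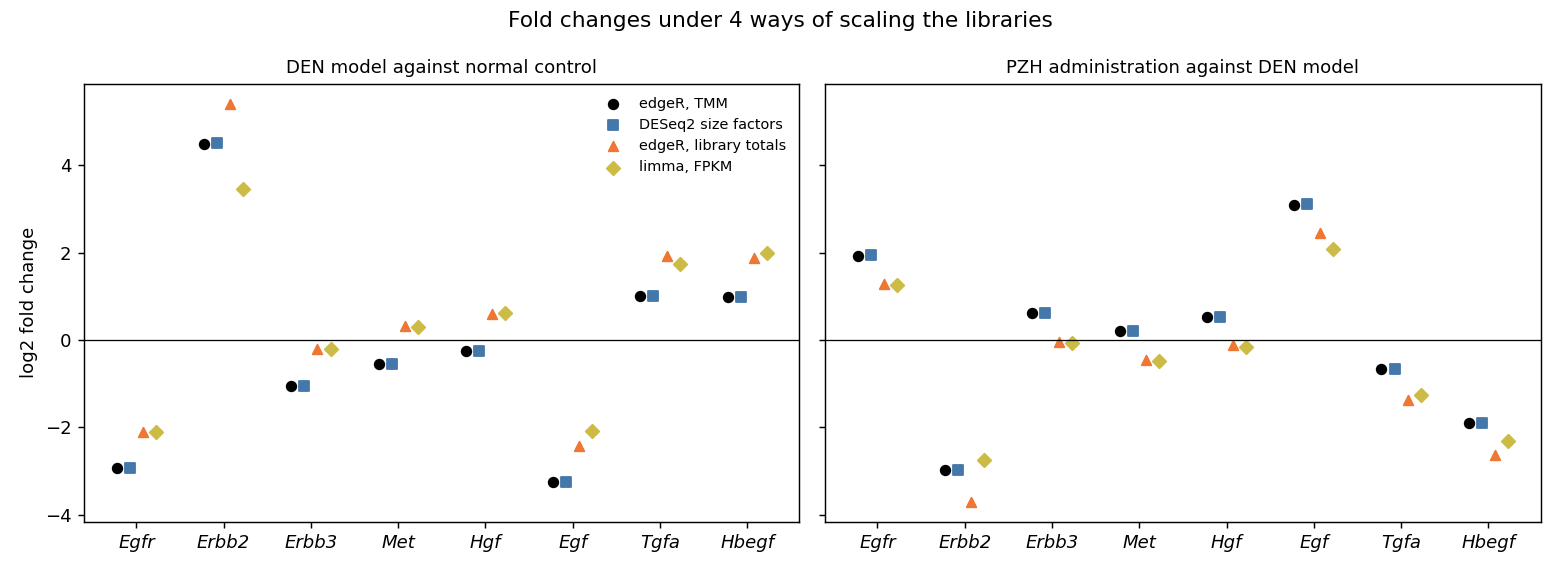
Log2 fold change (y axis) of the 8 testable genes in both comparisons with the DEN model group under 4 ways of scaling, 1 symbol per method. Egfr, Erbb2, Egf, Tgfa and Hbegf keep their side of 0 under all 4, whereas Met and Hgf change side in both panels and Erbb3 changes side after PZH.

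Sizes also moved with the scaling where calls did not. With library totals the DEN model log2 fold changes were -2.11 for Egfr, 5.42 for Erbb2 and -2.43 for Egf (edgeR adjusted p = 8.8e-05, 0.00026 and 0.00078), and those of PZH administration against DEN model were 1.29, -3.70 and 2.46 (adjusted p = 0.0064, 0.0034 and 0.0035). With limma on FPKM they were -2.11, 3.47 and -2.07 in the DEN model and 1.27, -2.74 and 2.09 after PZH. Tgfa in the DEN model was 1.92, and Hbegf after PZH -2.62, with library totals.

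Ratios of FPKM within a rat do not depend on library scaling, and were chosen after the values were seen, so they are given without a test. The summed FPKM of the 5 EGFR ligands, divided by the FPKM of Egfr, lay between 0.0720 and 0.104 in normal control, between 0.497 and 1.90 in DEN model and between 0.124 and 0.294 in PZH administration rats. The 3 ranges did not overlap. The ligand sum itself, which does depend on the scaling, was 4.99 ± 1.33, 15.1 ± 7.75 and 5.83 ± 1.02 (SD, n = 3) in the authors' FPKM, without TMM factors, in the 3 groups in that order. The makeup of the ligands also differed. Egf supplied 27.2 ± 5.39% of the ligand sum in normal control, 2.22 ± 2.05% in DEN model and 24.0 ± 8.38% in PZH administration rats, while Tgfa supplied 54.4 ± 10.01%, 66.3 ± 4.51% and 65.3 ± 9.49%. Erbb3 per Egfr was 0.521 ± 0.0092, 1.99 ± 0.356 and 0.795 ± 0.194, again without overlap, and Egfr per Met was 3.20 ± 0.687, 0.623 ± 0.277 and 2.13 ± 1.07, where DEN model rats lay below all others. Hgf per Met was 0.447 ± 0.118, 0.554 ± 0.130 and 0.675 ± 0.0973. These overlapped in the DEN model group with both others, and the PZH administration rats (0.567 to 0.756) lay just above the normal control rats (0.322 to 0.555).

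The rats of a group did not deviate evenly. DEN model rat 17 was the closest of its group to the normal control mean for 8 of the 10 genes (all but Met and Hgf), and DEN model rat 24 was the farthest for 5 (Areg, Ereg, Hbegf, Hgf and Tgfa). Rat 17 also had the highest hepatocyte marker sum of its group (87868 CPM), the lowest stellate cell sum (1192 CPM) and the lowest cholangiocyte marker sum (247 CPM). In the PZH administration group, rat 27 was closest to the normal control mean for 5 genes and rat 42 for none, being farthest for 4 (Egf, Egfr, Erbb2 and Tgfa). Counting genes whose groups did not overlap, among all 10 members and so including genes that failed the filter (Ereg in the first 2 counts, Erbb2 in the last), while the shares of all genes cover tested genes only, 7 of 10 separated DEN model from normal control rats, 3 higher and 4 lower, where 58.8% of all tested genes did (31.4% higher and 27.4% lower). PZH administration and DEN model rats were separated by 6 of 10, 3 in each direction (40.8% of all genes, 18.4% higher and 22.5% lower). PZH administration and normal control rats were separated by 3 of 10, Erbb2 higher and Egfr and Erbb3 lower (24.2% of all genes, 13.6% higher and 10.6% lower).

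Markers of cholangiocytes, like those of stellate cells given above, separated the 3 groups. The 8 cholangiocyte markers summed to 13.4 to 21.1 CPM in normal control, 247 to 787 CPM in DEN model and 83.2 to 110 CPM in PZH administration rats. All 8 rose in the DEN model group, 7 of 8 fell after PZH, and all 7 tested stayed above normal control. Macrophage markers summed to 642 to 1156, 681 to 834 and 334 to 768 CPM, and endothelial markers to 390 to 484, 218 to 434 and 325 to 462 CPM, in the 3 groups in that order, with overlap between the groups. Of 9 macrophage markers 3 were lower in the DEN model and 4 lower after PZH, and of 7 endothelial markers 1 was higher and 3 lower in the DEN model and 1 higher after PZH. The DEN model directions and the endothelial one after PZH depend on the scaling. With library totals 5 of 6 called macrophage markers and 3 of 4 called endothelial markers were higher in the DEN model (89.5% of all genes called). None of 3 called endothelial markers was higher after PZH (8.89% of all genes called). The part of these markers and of the stellate cell markers in the levels of Erbb2, Tgfa, Hbegf, Areg and Ereg was not tested.

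Of 13 genes of the wider EGF family in the table, 10 were tested against normal control, 3 rose (Erbb2, Tgfa and Nrg1) and 3 fell (Egfr, Egf and Erbb3), with a median log2 fold change of 0.48 against 0.03 for all genes, of which 45.8% were called. With library totals 5 were higher and 2 lower, where 89.5% of all genes called were higher. Nrg1, a neuregulin that binds ERBB3, rose by 1.92 (edgeR adjusted p = 0.00041), differed by -0.52 (adjusted p = 0.15) after PZH with TMM and by -1.18 (adjusted p = 0.0081) with library totals, and was above normal control by 1.36 (adjusted p = 0.030). Btc (betacellulin), Nrg2 and Nrg4 gave 0.53, 0.43 and 0.30 in the DEN model and did not pass, although Btc did with library totals (1.44, adjusted p = 0.024). Erbb4 was too low to test. After PZH the family counted 2 higher and 2 lower of 10 (median -0.18, against 0.01 for all genes, of which 19.1% were called), all of them members described above, and against normal control 1 higher and 1 lower of 8 (median 0.06, against -0.02, with 5.21% called).

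HGF is secreted as an inactive precursor that serine proteases cleave, and the genes of these proteases and their inhibitors changed in both directions. Of 17 genes of the HGF/MET system, 9 rose and 5 fell in the DEN model (median 1.59, where 45.8% of all genes were called), 1 rose and 6 fell after PZH (median -0.57, against 19.1%), and 4 were higher and none lower in PZH administration than in normal control rats (median 0.24, against 5.21%). With library totals 11 of 14 called were higher in the DEN model (89.5% of all genes called) and none of 10 after PZH (8.89%). Those that fell in the DEN model, besides Met, were activators or relatives of HGF made by hepatocytes: Hgfac (HGF activator, -1.23, edgeR adjusted p = 0.0046), Hpn (hepsin, -1.65, 0.0029), F2 (prothrombin, -1.90, 0.0079) and Mst1 (macrophage-stimulating protein, -1.51, 0.0085). Hpn rose again after PZH by 1.21 (adjusted p = 0.029). With library totals Hgfac did not pass (-0.41, adjusted p = 0.12), nor did Hpn after PZH (0.59, adjusted p = 0.073). Those that rose included the activating protease St14 (matriptase, 4.09, adjusted p = 0.00025), the plasminogen activator Plat (4.05, 0.00064), the inhibitor Spint1 (5.86, 0.00011), the MET co-receptor Cd44 (4.33, 0.00011) and Mst1r, the receptor of macrophage-stimulating protein (2.38, 0.024). The plasminogen system members Plau and Plaur (1.59 and 2.75, adjusted p = 0.0046 and 0.0086) and the co-receptor Nrp1 (1.59, 0.00032) rose too. Spint2, another inhibitor, gave 0.29 (adjusted p = 0.38), and 1.18 (adjusted p = 0.0085) with library totals. The heparan sulphate carrier Sdc1 gave -0.41 (adjusted p = 0.16), and reversed to 0.45 (adjusted p = 0.13) with library totals.

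St14, Plat, Spint1 and Cd44 fell after PZH, by 2.38, 2.48, 1.74 and 2.33 on the log2 scale (edgeR adjusted p = 0.009, 0.015, 0.028 and 0.0092). They remained the 4 genes of the list above normal control, by 1.67, 1.54, 4.10 and 1.96 (adjusted p = 0.023, 0.015, 0.0073 and 0.011). Spint1, St14 and other epithelial genes are also expressed by cholangiocytes, whose markers moved in the same directions as given above, and their part in these results was not tested. Plau also fell after PZH, by 1.505 (edgeR adjusted p = 0.015).

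Most of the proteases and cofactors that release EGF-family ligands rose in the DEN model. Of 8 shedding genes, 7 rose in the DEN model and none fell (median 1.40, where 25.3% of all genes were higher), and after PZH 6 fell and none rose (median -0.87, where 10.3% were lower). Adam8, a protease of myeloid cells, had the largest change of the 8 in the DEN model, 5.56 (standard error 0.29, edgeR adjusted p = 2.0e-05), then -1.37 (adjusted p = 0.024) after PZH, and was the 1 shedding gene above normal control afterwards (4.14, adjusted p = 0.0038). Adam12 and Adam10 rose by 1.51 and 1.46 (adjusted p = 0.025 and 0.0012), and after PZH Adam12 fell by 2.22 (adjusted p = 0.030) and Frmd8, a cofactor of ADAM17, by 1.02 (adjusted p = 0.027). Adam17, the main sheddase of TGF-alpha and amphiregulin, rose by 0.92 (adjusted p = 0.0023) and fell by 0.73 (adjusted p = 0.024). Stellate cell and cholangiocyte markers moved in the same directions, as given above. The part of these markers in the levels of the shedding genes was not tested.

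A list drawn up for restraint of the receptors held 17 genes, among them the adaptors Grb7 and Grb10, which are not simply inhibitors. Of the 17, 5 rose and 3 fell in the DEN model (median 0.14), and 2 rose and 2 fell after PZH (median -0.11). These shares were close to the 45.8% and 19.1% of all genes called. With library totals 11 of 12 called were higher in the DEN model (89.5% of all genes called) and 1 of 10 after PZH (8.89%). Errfi1 (MIG6), an inhibitor of the EGFR kinase, moved with Egfr: 1917, 2258 and 2065 CPM in normal control rats 1, 3 and 12, 232, 293 and 244 CPM in DEN model rats 13, 17 and 24, and 1319.8, 865 and 934 CPM in PZH administration rats 27, 28 and 42. No groups overlapped. Its log2 fold changes were -3.01 (standard error 0.29, edgeR adjusted p = 0.00021) and 2.05 (0.27, adjusted p = 0.0089), beside -2.93 and 1.94 for Egfr, and both calls held with library totals (-2.15 and 1.38). Cblc, a ubiquitin ligase for EGFR, rose by 5.71 (adjusted p = 0.00071) and was still higher than normal control after PZH (3.71, adjusted p = 0.026). Grb10 rose by 2.25 (edgeR adjusted p = 0.0084) and fell by 2.08 (adjusted p = 0.026). Sh3kbp1, which helps to internalise EGFR, rose by 1.64 (adjusted p = 0.0029) and fell after PZH by 1.06 (adjusted p = 0.041). Grb7 was lower after PZH than in normal control (-0.83, adjusted p = 0.0498), a call lost with library totals (-0.62, adjusted p = 0.16).

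Downstream, the 31 tested genes of the signal relay (adaptors, RAS, RAF, MEK, ERK, PI3K and AKT) were called about as often as all genes, with 6 higher and 9 lower in the DEN model (median -0.23, where 45.8% of all genes were called), 4 higher and 3 lower after PZH (median 0.03, against 19.1% of all genes), and none called against normal control by edgeR (2 at an unadjusted p under 0.05). With library totals all 16 called in the DEN model were higher, and all 15 called after PZH were lower. Of all genes called with that scaling, 89.5% were higher in the DEN model and 8.89% after PZH. The adaptor Gab2 rose by 2.46 (edgeR adjusted p = 0.0021) and fell after PZH by 1.11 (adjusted p = 0.021). Araf fell by 1.25 (adjusted p = 0.0011) with TMM but gave -0.41 (adjusted p = 0.082) with library totals. Src and Mapk3 (ERK1) rose in the DEN model by 1.17 and 0.97 (edgeR adjusted p = 0.013 and 0.0056). They fell after PZH by 1.05 and 0.99 (adjusted p = 0.0196 and 0.020), to 0.087 and -0.063 against normal control (adjusted p = 0.92 for both). Of 19 tested feedback and target genes of ERK, 8 rose and 2 fell (median 0.56, against 25.3% and 20.5% of all genes). After PZH 1 rose and 6 fell (median -0.40, against 8.72% and 10.3% of all genes). With library totals 14 of 15 called were higher in the DEN model, and all 14 called after PZH were lower, beside the same shares of all genes. Etv4, a transcription factor induced by ERK, rose by 5.56 (standard error 0.93, edgeR adjusted p = 0.0020) and fell by 4.22 (adjusted p = 0.013). Dusp4, an ERK phosphatase, rose by 3.22 (edgeR adjusted p = 0.0029) and fell by 2.18 after PZH (adjusted p = 0.029). Il1rl1, the IL-33 receptor, rose by 4.85 (adjusted p = 0.0011) and fell by 1.66 (adjusted p = 0.046). Emp1, a membrane protein, rose by 4.96 (edgeR adjusted p = 9.5e-05) and fell after PZH by 1.55 (adjusted p = 0.014). It remained 3.39 above normal control after PZH (adjusted p = 0.0021). Epha2, an ephrin receptor, differed from normal control by -1.65 in the DEN model (adjusted p = 0.0011) and by -1.60 after PZH (adjusted p = 0.0075). Between PZH administration and DEN model rats it differed by 0.08 (adjusted p = 0.84).

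**Figure D5:**
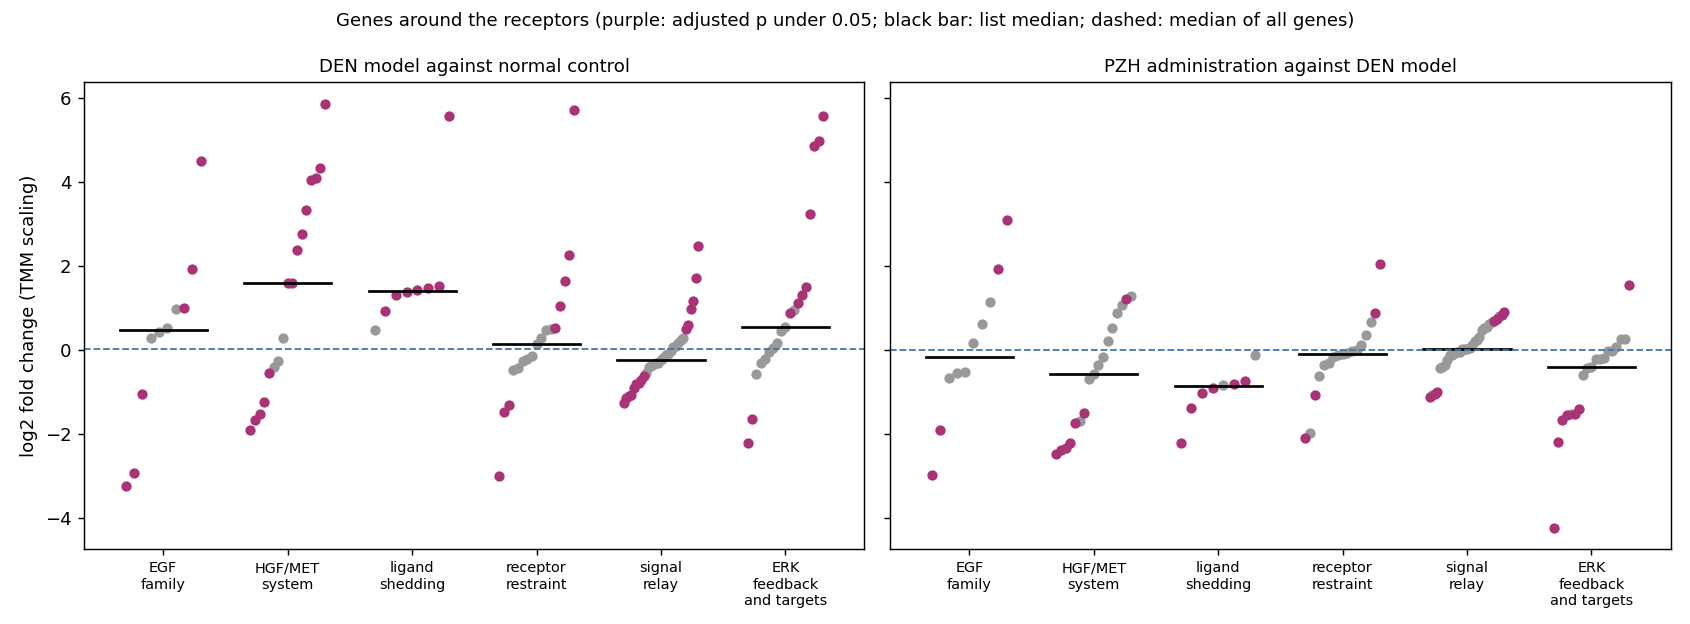
Log2 fold change with TMM (y axis) of every tested gene in 6 lists around the receptors, 1 point per gene, purple where the adjusted p was under 0.05, with the list median as a black bar and the median of all genes dashed. Shedding genes lie above 0 in the DEN model (median 1.40) and below it after PZH (median -0.87), while relay genes centre near 0 in both.

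Across the 9 rats, the genes whose log2(CPM + 1) followed Egfr most closely of 11952 compared were Cyp2d3, Gramd1c and Lipc (Pearson's r 0.996, 0.994 and 0.994), and 1169 genes exceeded 0.9. For Erbb3 they were Ndufv3, Rab5b and Chd7 (0.995, 0.992 and 0.990, with 981 above 0.9). Met had 31 such genes, led by Gpc4, Tnks2 and Peli1 (0.977, 0.948 and 0.945), and Hgf had 6, led by Slc35d1, Polb and Tgfbr3 (0.923, 0.921 and 0.913). The points share 3 groups and library scaling, so these values describe likeness over the 9 libraries only.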

How the data were processed

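The genes and lists described here were chosen with earlier results of these data known. Liver RNA of 9 rats was sequenced by the authors, 1 library per rat, and the deposited table holds read counts per gene and FPKM values (fragments scaled to transcript length and depth) that the authors computed from them. The submitters' processing notes name fastp, HISAT2 2.1.0, StringTie 1.3.3b and edgeR 3.30.3. The genome build and the counter are not given in the sources used here. The 18 columns of the authors' own comparisons (group means, fold changes, P and Q values, direction) were not used.

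Counts were analysed in R 4.3.3 with edgeR 4.0.16: filterByExpr, TMM factors, and glmQLFit with glmQLFTest on the 6 rats of each comparison. P-values were adjusted by Benjamini-Hochberg over all genes tested, with calls under 0.05. A standard error is the absolute log2 fold change divided by the square root of F, and 95% intervals follow from it. A gene was also held to the thresholds used in the study. P-values weigh the difference between groups against the spread between rats of a group, and the 95% intervals include that spread. A floor is 3 counts and covers counting error only. Depths were 14922973 to 27161496 counts per rat.

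Named genes were the 10 members, the EGF family and HGF/MET lists, the 3 called genes with the largest absolute log2 fold change in each other list and comparison, and the 3 genes most like Egfr, Erbb3, Met and Hgf. Adam17 was named after its values were seen. Some genes that this rule names are not reported here. Alternatives were DESeq2 1.42.0, library totals, other filters, all groups in one fit, limma 3.58.1 on log2(FPKM + 0.1), and leaving out each rat. The scripts were tested on simulated data. Promoters came from RefSeq (GRCr8).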

Additional observations from a re-analysis of the deposited data

How the results depend on the processing

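No paired analysis was possible because the rat numbers are not shared between groups. With 3 rats a group, single libraries decide several calls. At the study's thresholds the members called were 3, 2 and 0 (DEN model against normal control, PZH administration against DEN model, PZH administration against normal control, the order used below). At an adjusted p under 0.05 the last comparison went from 1 (Egfr) to 0 with library totals, with at least 10 counts in every rat, with all groups in one fit and with limma on FPKM. Leaving out 1 rat gave 4 to 7, 1 to 5 and 0 to 1 members. Over all genes it gave 4724 to 6790, 271 to 3319 (271 without DEN model rat 13) and 207 to 1326 calls, against 6529, 2722 and 696. PZH administration against DEN model gave 6252 calls with library totals and 6147 with FPKM. PZH administration against normal control gave 1320 with DESeq2 and 340 with at least 10 counts in every rat. Directions reversed, with library totals and FPKM in that order, for Met (0.33 and 0.30) and Hgf (0.61 and 0.61) in the DEN model, for Erbb3 (-0.051 and -0.063), Met (-0.47 and -0.47) and Hgf (-0.11 and -0.17) in PZH administration against DEN model, and for Egf (0.035 and 0.019) in PZH administration against normal control. Hbegf in the last comparison ranged from -1.36 to 0.11 on leaving out 1 rat, reversing without normal control rat 12. The cause was not tested. Of the members' fold changes under the alternatives, 76, 81 and 72 kept direction and call, 12, 5 and 9 lost the call, 3, 3 and 0 gained it and 4, 6 and 3 reversed. Egfr, Egf and Erbb2 kept their DEN model calls under every alternative that could be fitted. Erbb2 had too few counts for the filter of 10 in every rat. Areg and Ereg, at most 31 reads in any rat, are limited by depth.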
